A study of Mus musculus with 8 samples.

Results

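The 41 genes described here encode ligands, receptors, secreted antagonists and Smad proteins of the TGF-beta, activin, Nodal and BMP pathway, out of 19938 genes measured in the series. They were named from knowledge of the pathway, as the context of 1 gene, Lefty2, which had been picked because it read lower in mutant than in control arrays. Each of the 41 was measured by exactly 1 probe set that names no other gene. RNA came from upper neocortex (layers II-IV) that was cut out by laser from 8 mouse pups on postnatal day 5, with 1 array per pup. The 4 mutants were Bcl6 flox/flox;Nex Cre/+ and the 4 controls were Bcl6 flox/flox;Nex +/+, so that all 8 carried the floxed alleles and the mutants alone carried Cre. Nex is Neurod6, a gene of postmitotic excitatory cortical neurons, and glia, vessels and interneurons of the mutants should keep an intact Bcl6. Per the series title, the study asked how Bcl6, a transcriptional repressor, bears on the death of cortical projection neurons during development.

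Ligands of this family bind pairs of type II and type I receptor kinases, and the type I receptor phosphorylates receptor Smads. Smad2 and Smad3 carry the signals of TGF-beta, activin and Nodal, Smad1, Smad5 and Smad9 carry those of BMPs, and Smad4 joins both branches. Smad6 and Smad7 are inhibitors that the pathway itself induces, and secreted antagonists such as Lefty, follistatin, noggin, chordin and gremlin hold ligands or receptors back. In the brain, BMPs favour the formation of astrocytes and TGF-beta maintains the mature state of microglia.

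All values are log2 expression values as deposited, and a difference is mutant minus control with limma's standard error (SE). The deposited array medians lay between 4.94 and 5.01, and values of different probe sets are not set against each other, because probes differ in how well they bind. In tissue RNA, fewer cells of a type and less RNA per cell cannot be told apart. The targeted gene did not mark the groups as a deletion would. Bcl6 read 6.61, 6.76, 6.96 and 6.78 in mutants 1 to 4, against 6.55, 6.58, 6.25 and 6.23 in controls 1 to 4, and the sources used here do not say which part of the transcript its probe set covers. Neurod6, the locus that carries Cre in mutants, read 8.69 to 9.07 in mutants and 9.15 to 9.41 in controls, with no overlap (-0.39 ± 0.09, SE, limma adjusted p = 0.535). The words mutant and control therefore stand for the labels of the arrays, and each direction rests on them. Of the 10 excitatory neuron markers measured, Neurod6 read lower and Tbr1 higher in mutants with no overlap (Tbr1 0.17 ± 0.07, SE, limma adjusted p = 0.988), and 8 had overlapping groups. Among all genes, 1.79% read lower and 0.963% higher with no overlap. Rorb, a layer IV marker, averaged 10.26 ± 0.30 in mutants and 10.16 ± 0.55 in controls (SD, n = 4 each). Mutants 1 and 4 read 9.78 and 9.76 for Xist, the X-inactivation RNA, and the other 6 arrays 2.64 to 3.41, so these 2 mutants were female by RNA and no control was.

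The 6 secreted antagonists listed among the pathway genes, Lefty2 included, all read lower in mutants, with a median difference of -0.17. Without Lefty2, the median of the other 5 was -0.15. Of 26 further extracellular modulators, read as part of the wider pathway, 17 were negative and 9 positive, with a median of -0.03. The common direction is therefore given for the 6 listed genes and not for secreted modulators as a class. The 26 are not antagonists alone, since they include Tll1, a protease that cleaves chordin. Secreted antagonists outside the 6 were not read as a set of their own. Lefty2 was 5.04, 5.13, 5.09 and 4.96 in mutants 1 to 4, against 5.55, 5.41, 5.51 and 5.57 in controls 1 to 4. Every mutant array lay below every control array, and the highest mutant and the lowest control were both the replicate labelled 2. The group means were 5.06 ± 0.07 in mutants and 5.51 ± 0.07 in controls (SD, n = 4 each), which puts mutants -0.45 ± 0.07 (SE) apart from controls, the controls being 1.37-fold higher. Lefty2 was chosen for this difference, so it is given as a description, and its adjusted p of 0.032 in limma is the value that brought it forward and not a further test. Both Lefty2 means lay under the median level over genes, 5.55 in mutants and 5.56 in controls. Probes differ in how well they bind, so this places the level only roughly. There were no detection calls, so whether Lefty2 was detected was not tested.

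The adjusted p of Lefty2 in limma depended on which arrays and which scaling were used, although the difference itself moved little. Over 17 alternative fits, which leave aside the fit with the replicate number as a block, the difference lay between -0.49 and -0.40, and the adjusted p was under 0.05 in 6 of them and reached 0.59. Of the 8 fits that left out 1 array, the fit without control replicate 2 gave 0.0398, and the other 7 gave 0.0656 to 0.143. With a term for sex the difference was -0.40 ± 0.08 (SE, adjusted p = 0.403), and without the 2 female mutants it was -0.40 ± 0.08 (adjusted p = 0.589). The 2 male mutants read 5.13 and 5.09, the 2 female mutants 5.04 and 4.96, and all 4 male controls at least 5.41.

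**Figure D1:**
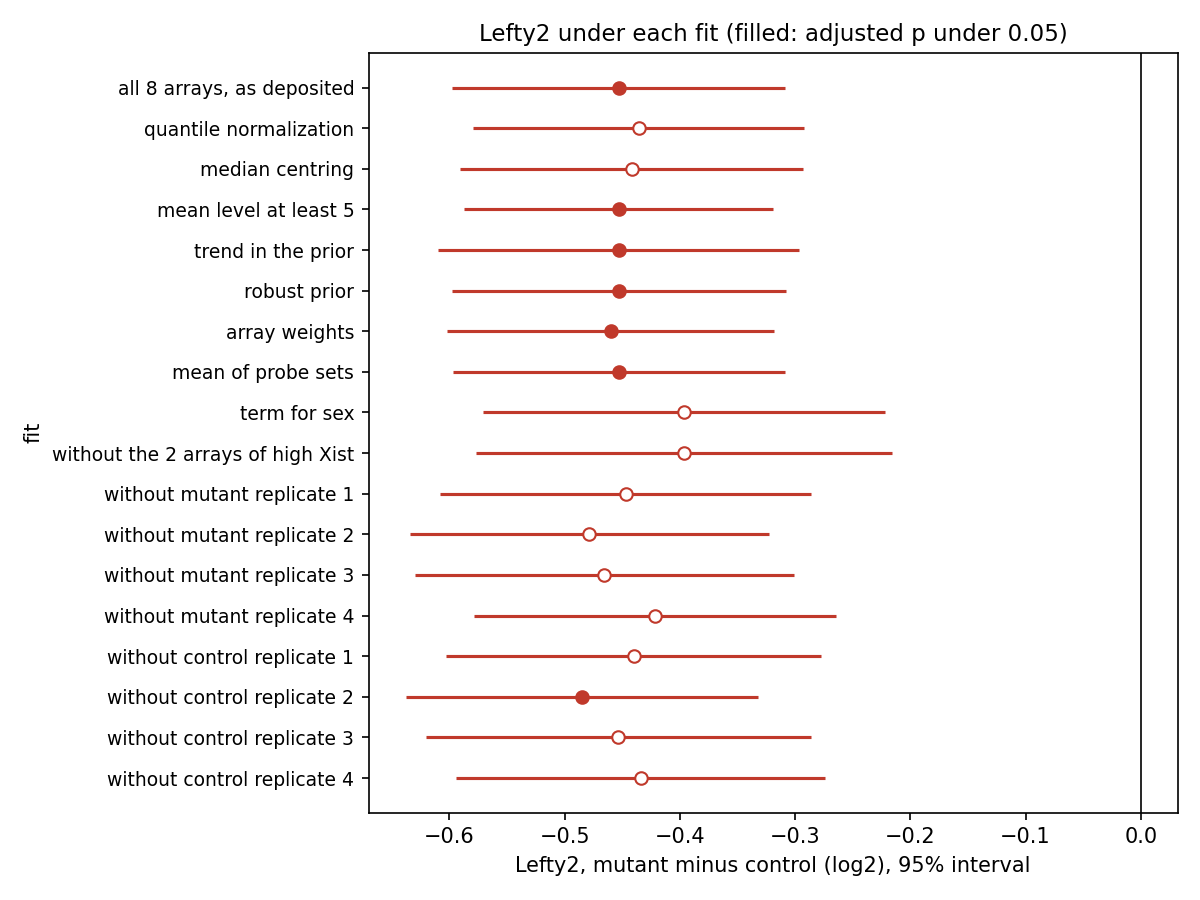
Lefty2 in mutants relative to controls (x axis, log2 difference) with its 95% interval from limma in each of 18 fits (y axis), filled where the adjusted p was under 0.05. The fit with the replicate number as a block is not drawn. Every difference lies between -0.49 and -0.40, and 7 of the 18 points are filled, that of all 8 arrays as deposited among them.

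Lefty1 is the close relative and chromosomal neighbour of Lefty2, and both encode inhibitors of Nodal signalling. Lefty1 read 3.85, 4.08, 4.19 and 3.80 in mutants 1 to 4, against 3.97, 4.18, 4.29 and 4.19 in controls 1 to 4. The groups overlapped, and the difference of -0.18 ± 0.10 (SE, n = 4 per group) did not pass in limma (adjusted p = 0.9995). It was -0.02 without the 2 female mutants, and the same with a term for sex. Whether any probe of either set binds both transcripts cannot be read from the table. Nodal, the ligand that both inhibit, read 4.03, 4.32, 4.17 and 4.11 in mutants and 4.32, 4.32, 4.11 and 4.20 in controls, and its difference of -0.08 ± 0.08 (SE) was 0.0092 without the female mutants. In the gene order of GRCm38.p6, 7 of the 8 nearest protein-coding genes, 4 on each side of Lefty2 on chromosome 1, were measured, Lefty1 among them. Apart from Lefty1 their differences lay between -0.08 and 0.04, and 0 of the 7 had groups that did not overlap, against 2.75% of all genes. Among the 7, H3f3a read 3.67 to 3.90 and Mixl1 3.86 to 4.41, and whether they were detected was not tested.

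The other antagonists varied more between pups than Lefty2. Follistatin (Fst), which binds activins, read 5.57, 5.49, 5.30 and 4.92 in mutants 1 to 4, against 5.74, 6.40, 5.21 and 5.39 in controls 1 to 4. Control 2 stood above the rest, and the difference of -0.36 ± 0.22 (SE) had a 95% interval from -0.83 to 0.10. The pooled SD of Fst within groups, 0.42, was at or above that of 99.9% of all genes. Chordin (Chrd), which binds BMPs, read 5.13, 5.19, 4.94 and 4.82 in mutants and 5.25, 5.11, 5.18 and 5.15 in controls, a difference of -0.15 ± 0.08 (SE). The BMP antagonists noggin (Nog) and gremlin (Grem1) differed by -0.08 ± 0.10 and -0.14 ± 0.15 (SE). All 6 antagonists were negative in each of the 17 fits that kept all 6, with a median between -0.23 and -0.11. Several of these fits leave each difference unchanged, and the term for sex repeats the fit without the female mutants. The fits also share most arrays, so they are not separate tests of direction. Over all genes 55.4% of differences were negative, and the median was -0.019 among genes with a mean level under 6, where all 6 antagonists lie. Without Lefty2, 0 of the other 5 passed in limma and 0 had an unadjusted p under 0.05, so their common direction is a description of these arrays. Among markers of other cell types, 7 of 11 microglial and 9 of 14 mural and meningeal markers were negative, with medians of -0.053 and -0.042. In the list of ciliated ependyma and choroid plexus 6 of 11 were negative, while 10 of 11 astrocyte and 8 of 11 endothelial markers were positive. The averages of the microglial list spanned 4.57 to 4.72 in mutant arrays and 4.61 to 4.89 in control arrays. For the mural and meningeal list they spanned 4.95 to 5.05 in mutant and 4.96 to 5.25 in control arrays, and their part in the antagonists' values was not tested.

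**Figure D2:**
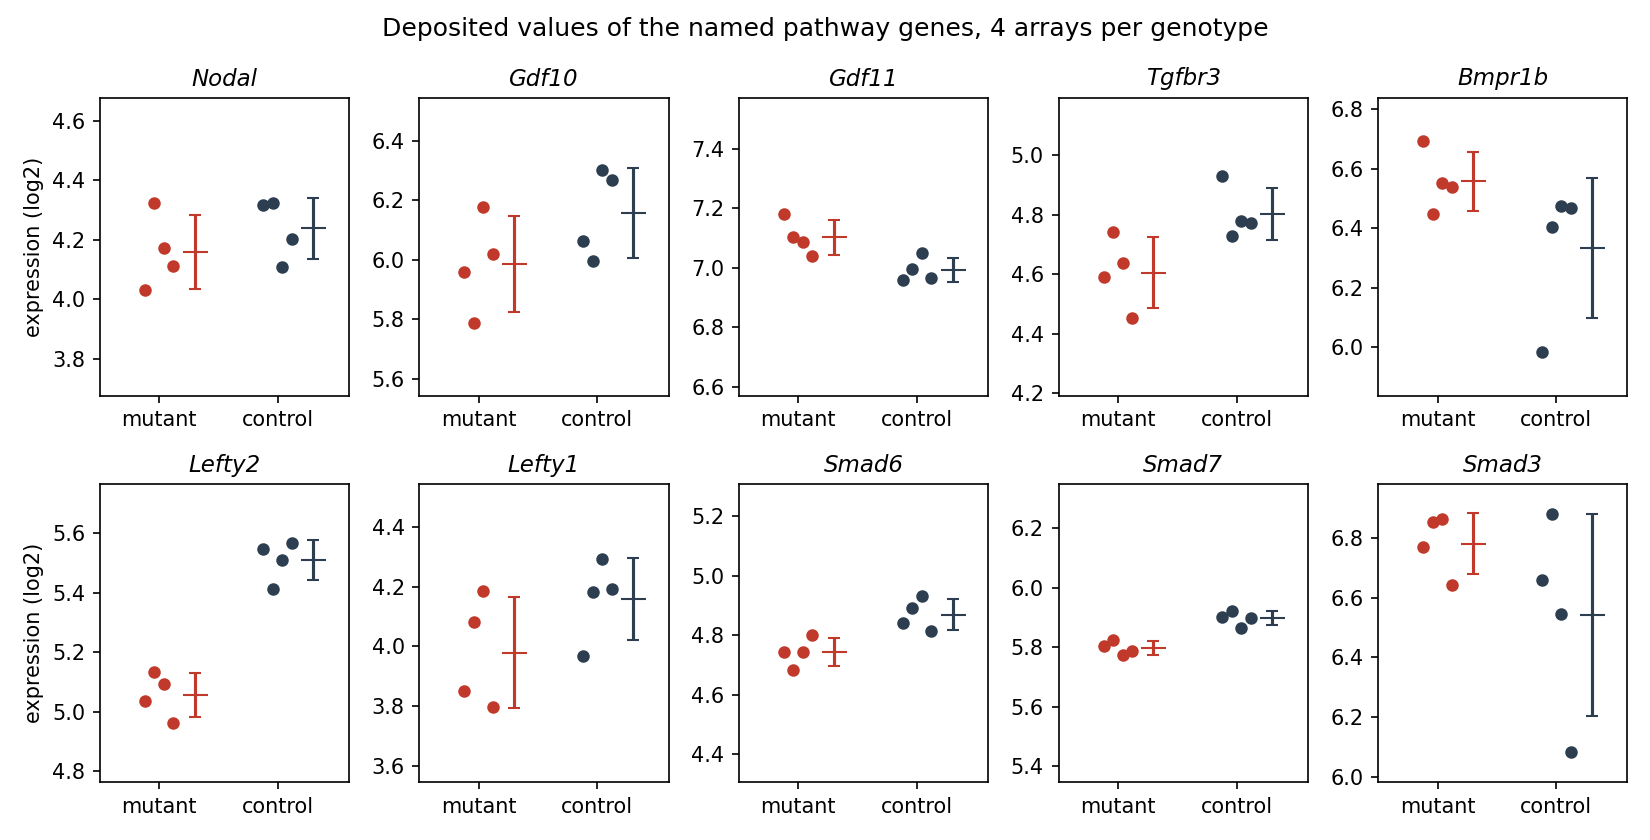
Deposited expression values (y axis, log2, each panel 1 unit tall) of 10 pathway genes in 4 mutant arrays (left, red) and 4 control arrays (right, dark), with a cross bar for the group mean and its SD. Lefty2, Smad6 and Smad7 show no overlap between genotypes, with differences of -0.45, -0.13 and -0.10.

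Across the 41 genes, 1 passed the adjusted threshold of 0.05 in limma, Lefty2, which had been chosen for it, against 0.0652% of all genes in either direction, 0.015% lower and 0.0502% higher in mutants. Of the other 40 genes 0 passed, and 1 had an unadjusted p under 0.05, which is 2.50% against 4.91% of all genes (3.28% lower and 1.64% higher in mutants). The median difference was -0.015 over the 41 genes and -0.013 without Lefty2, against -0.0096 over all genes. Of the 41 differences, 25 were negative and 16 positive. After quantile normalization these numbers were 23 and 18, with a median of -0.0071, and after median centring 21 and 20, with a median of -0.0035. The 95% interval lay within 0.5 of zero on the log2 scale, a 1.41-fold change either way, for 38 of the 41 genes, the exceptions being Lefty2, Fst and Smad3. It lay within 0.3, or 1.23-fold, for 25 genes. These intervals set what 4 arrays per genotype could show for each gene, and they differ from gene to gene.

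**Figure D3:**
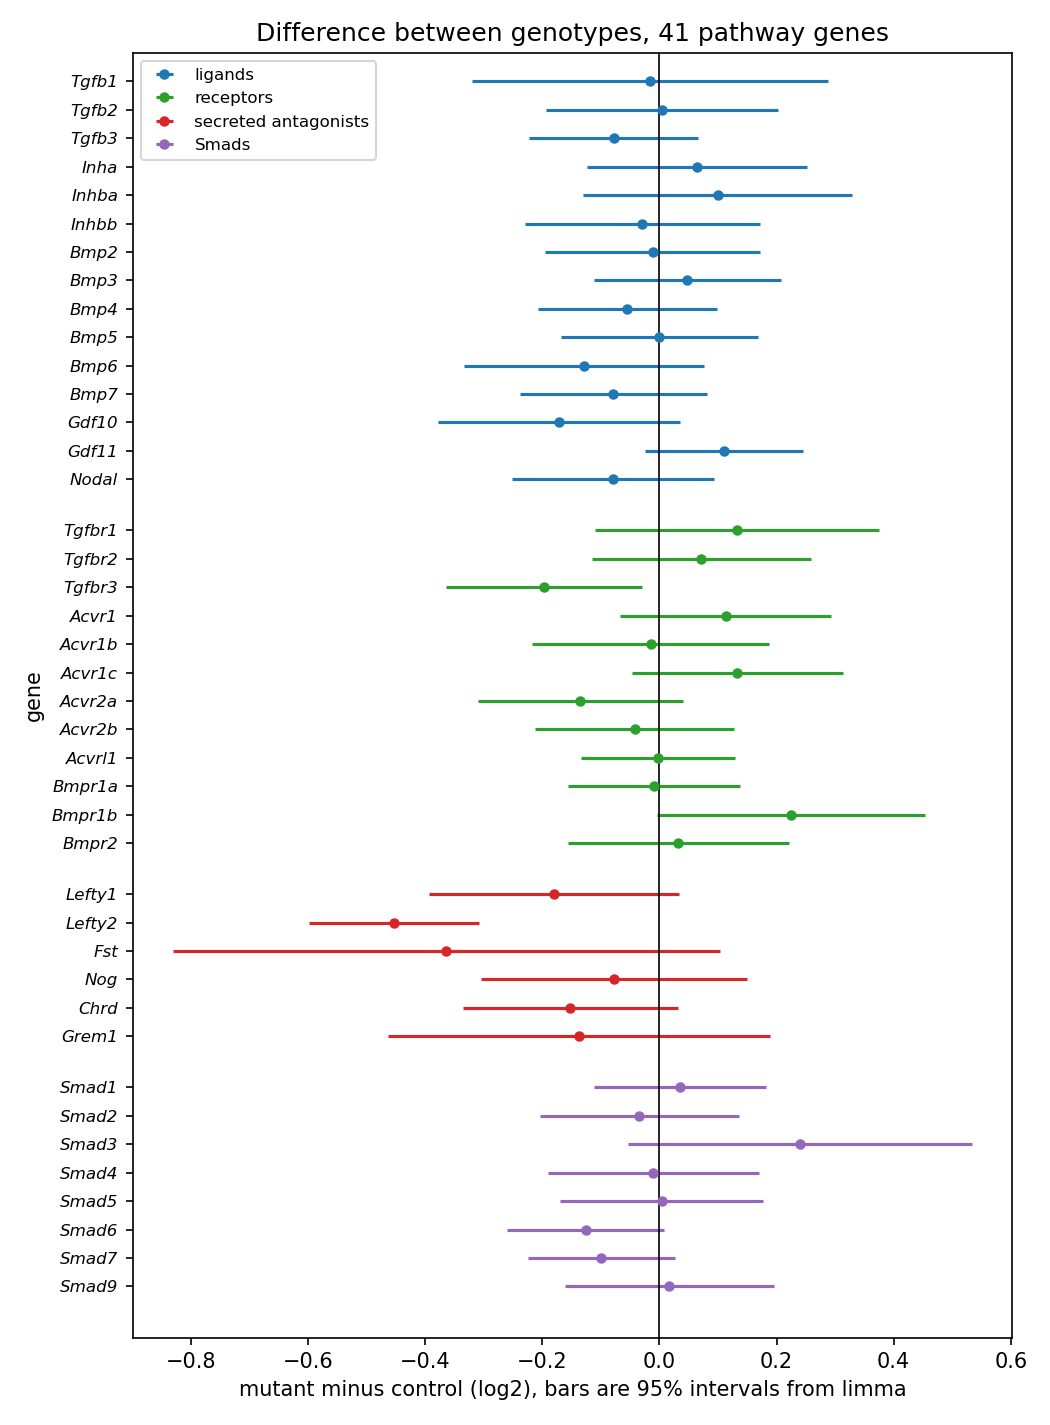
Mutant minus control on the log2 scale (x axis) for the 41 pathway genes (y axis), grouped by role, with points for the estimate and bars for limma's 95% interval. Apart from Lefty2 and Tgfbr3, all intervals span 0, and all 6 secreted antagonists lie left of it.

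The 15 ligands gave differences between -0.17 and 0.11, 9 negative and 6 positive, with a median of -0.016. By limma 0 passed, and 0 had an unadjusted p under 0.05, against 0.0652% and 4.91% of all genes. Gdf10, a BMP3-like factor, read 5.96, 5.79, 6.18 and 6.02 in mutants 1 to 4, against 6.06, 5.997, 6.30 and 6.27 in controls 1 to 4. The groups overlapped, and the difference was -0.17 ± 0.10 (SE, limma adjusted p = 0.9995), and -0.11 without mutant 2. Gdf11, which signals through activin receptors, read 7.18, 7.10, 7.09 and 7.04 in mutants and 6.96, 6.99, 7.05 and 6.96 in controls, a difference of 0.11 ± 0.06 (SE). The lowest mutant lay just under the highest control, and its pooled SD of 0.051 was among the smallest of the 41.

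The 3 TGF-beta genes differed by -0.02 ± 0.14 (Tgfb1), 0.0046 ± 0.09 (Tgfb2) and -0.08 ± 0.07 (Tgfb3, SE). Tgfb1, the form that microglia depend on, varied widely within each genotype, reading 4.80 to 5.43 in mutants and 4.78 to 5.42 in controls. The activin and inhibin subunit genes Inhba, Inhbb and Inha differed by 0.10 ± 0.11, -0.03 ± 0.09 and 0.06 ± 0.09. Inhba, whose product forms activin A, read 8.77 to 8.93 in mutants, while controls split into 8.92 and 9.02 for replicates 1 and 2 and 8.58 and 8.52 for replicates 3 and 4. The BMP genes Bmp2 to Bmp7 lay between -0.13 (Bmp6) and 0.05 (Bmp3). Bmp6 was pulled by control 1 at 5.79, against 5.30 to 5.52 in the other 3 controls and 5.30 to 5.47 in mutants.

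The 12 receptor genes gave differences between -0.20 and 0.22, 6 negative and 6 positive, with a median of 0.015, and 0 passed in limma. Tgfbr3, or betaglycan, a co-receptor that presents TGF-beta2 and inhibin, was the receptor of smallest p. It read 4.59, 4.74, 4.64 and 4.45 in mutants 1 to 4, against 4.93, 4.73, 4.78 and 4.77 in controls 1 to 4. The groups overlapped by 1 array on each side, and the difference was -0.20 ± 0.08 (SE, limma adjusted p = 0.988, unadjusted p = 0.0245). Without the 2 female mutants it was -0.11. Bmpr1b, a type I BMP receptor, read 6.69, 6.45, 6.55 and 6.54 in mutants and 5.98, 6.40, 6.48 and 6.47 in controls, a difference of 0.22 ± 0.11 (SE, adjusted p = 0.9995). Control 1 set much of that difference, which was 0.11 without it. The related type I receptor Bmpr1a and the type II receptor Bmpr2 differed by -0.0097 ± 0.07 and 0.03 ± 0.09. Of the receptors for TGF-beta itself, Tgfbr1 read 8.25 to 8.54 in mutants and 7.95 to 8.46 in controls, and Tgfbr2 5.66 to 5.83 in mutants and 5.44 to 5.85 in controls. Among activin and Nodal receptors, Acvr2a (-0.14 ± 0.08), Acvr1c (0.13 ± 0.08), Acvr2b (-0.04 ± 0.08) and Acvr1b (-0.01 ± 0.09, SE) all had overlapping groups. Acvr1, a type I receptor for BMPs, differed by 0.11 ± 0.08. Acvrl1, a receptor of endothelial cells, was nearly level at 5.69 to 5.74 in mutants and 5.68 to 5.78 in controls, with an interval of the difference from -0.13 to 0.13.

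The 8 Smad genes gave differences between -0.13 and 0.24, 4 negative and 4 positive, with a median of -0.0032 that was 0.0083 after median centring. By limma 0 passed, and 0 had an unadjusted p under 0.05, against 0.0652% and 4.91% of all genes. Both inhibitory Smads had groups that did not overlap. Smad6, which blocks BMP signalling, read 4.74, 4.68, 4.74 and 4.80 in mutants 1 to 4, against 4.84, 4.89, 4.93 and 4.81 in controls 1 to 4. The highest mutant and the lowest control were nearly level, and the difference was -0.13 ± 0.06 (SE, adjusted p = 0.9995). Smad7, which blocks both branches, read 5.81, 5.83, 5.77 and 5.79 in mutants and 5.90, 5.92, 5.86 and 5.90 in controls, which differed by -0.10 ± 0.06 (SE, adjusted p = 0.9995), the controls being 1.07-fold higher. The pooled SD of Smad7 was 0.023, and 0.0953% of all genes had one as small or smaller. limma draws so small a variance towards that of other genes, which widens the SE. With Lefty2, 3 of the 41 genes read lower with no overlap and 0 read higher, against 1.79% and 0.963% of all genes, or 2.75% in either direction. After quantile normalization Lefty2 and Smad7 remained without overlap, and Smad6 did not, against 1.33% of all genes lower.

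Among Smads that carry the signal, Smad3 had the largest difference, 0.24 ± 0.14 (SE, adjusted p = 0.9995). It read 6.77, 6.85, 6.86 and 6.64 in mutants 1 to 4, against 6.66, 6.88, 6.55 and 6.08 in controls 1 to 4, so that control 4 alone lay far below the rest. Without that array the difference was 0.09. Smad2, its partner in the TGF-beta and Nodal branch, differed by -0.03 ± 0.08, and the shared Smad4 by -0.01 ± 0.08. The BMP Smads Smad1, Smad5 and Smad9 differed by 0.03 ± 0.07, 0.0039 ± 0.08 and 0.02 ± 0.08 (SE).

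The promoter of Smad6 is shown, the 1 of the 3 genes without overlap whose promoter was searched, because it holds a palindromic Smad-binding sequence. It is taken from RefSeq (GRCm38.p6, chr9:64022056-64022309, minus strand), runs from 250 bases before the annotated start, and ends 4 bases after it. The capitals mark the motif, which straddles the start.
Smad6: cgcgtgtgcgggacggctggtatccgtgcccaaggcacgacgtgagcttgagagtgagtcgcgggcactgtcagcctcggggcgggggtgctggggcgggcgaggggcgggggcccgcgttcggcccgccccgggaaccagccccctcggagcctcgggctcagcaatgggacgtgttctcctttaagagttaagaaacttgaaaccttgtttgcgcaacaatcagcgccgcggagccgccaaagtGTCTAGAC
RefSeq promoter windows of 300 bases were at hand for 28 of the 41 genes, in 34 windows, and 12 short motifs were searched on both strands. Lefty2, Lefty1 and Smad7 are among the 13 genes with no window here, so their promoters were not searched. GTCTAGAC, which reads the same on both strands and pairs 2 Smad3 or Smad4 boxes, was found in 1 of the 34 windows, that of Smad6, and in 0.213% of all 32851 windows. The GC-rich sequence GGCGCC, which Smads also bind, was found in 10 of 34 windows and 11.9% of all windows, and the single-box form CAGACA in 5 of 34 and 21.0%. The BCL6 sequence TTCCTAGAA and its looser forms TTCNTAGAA, TTCCTNGAA and TTCNNNGAA, the first 3 of which are contained in the last, were found in 0 of the 34 windows, and in 0.411%, 1.07%, 1.59% and 8.30% of all windows. The FoxH1 sequence AATCCACA and its looser form AATNCACA were likewise in 0 of 34, and in 0.855% and 3.60% of all. Of general promoter sequences, the TATA box (TATAAA) was in 4 of the 34 windows and 13.6% of all. The NF-Y box (CCAAT) was in 14 of 34 and 37.4%, and the Sp1-type GC box (GGGGCGGGG) in 9 of 34 and 11.4%. These matches are letters in a window and do not show a site in use, and a missing match says nothing about a factor.

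The pups of one genotype differed among themselves in a shared way at the genes read at higher levels. Of the 13 pathway genes with a mean level of at least 7, among them Bmpr2, Inhba, Smad4, Tgfbr1 and Acvr1, all 13 lay above the group mean in mutant 1 and all 13 in control 2, with median deviations of 0.09 and 0.13. In mutant 4 the number was 3, with a median deviation of -0.06, and in control 4 it was 2, with -0.12. Over all 5962 genes of that level the median deviations of these arrays were 0.03 in mutant 1, 0.0091 in mutant 4, 0.04 in control 2 and -0.02 in control 4. Control 2 was the highest of the 8 arrays for 14 of the 41 genes, or 34.1%, against 19.1% of all genes. Control 4 was the lowest for 11 genes, or 26.8%, against 14.8% of all genes. Rorb, the layer IV marker, was also lowest in these arrays, at 9.81 in mutant 4 and 9.35 in control 4, against 10.33 to 10.50 in the other 3 mutants and 10.32 to 10.50 in the other 3 controls. Cux2, a marker of layers II-IV, read 8.69 in mutant 4 and 8.42 in control 4, the lowest of each genotype. Over the whole list of 10 excitatory neuron markers, 7 lay below their group mean in mutant 4 and 9 in control 4, against 2 to 6 in the other 3 mutants and 2 to 5 in the other 3 controls. Slc17a7 was above its group mean in control 4, as were Tbr1, Emx1 and Pou3f2 in mutant 4. Their part in the pathway's values was not tested.

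**Figure D4:**
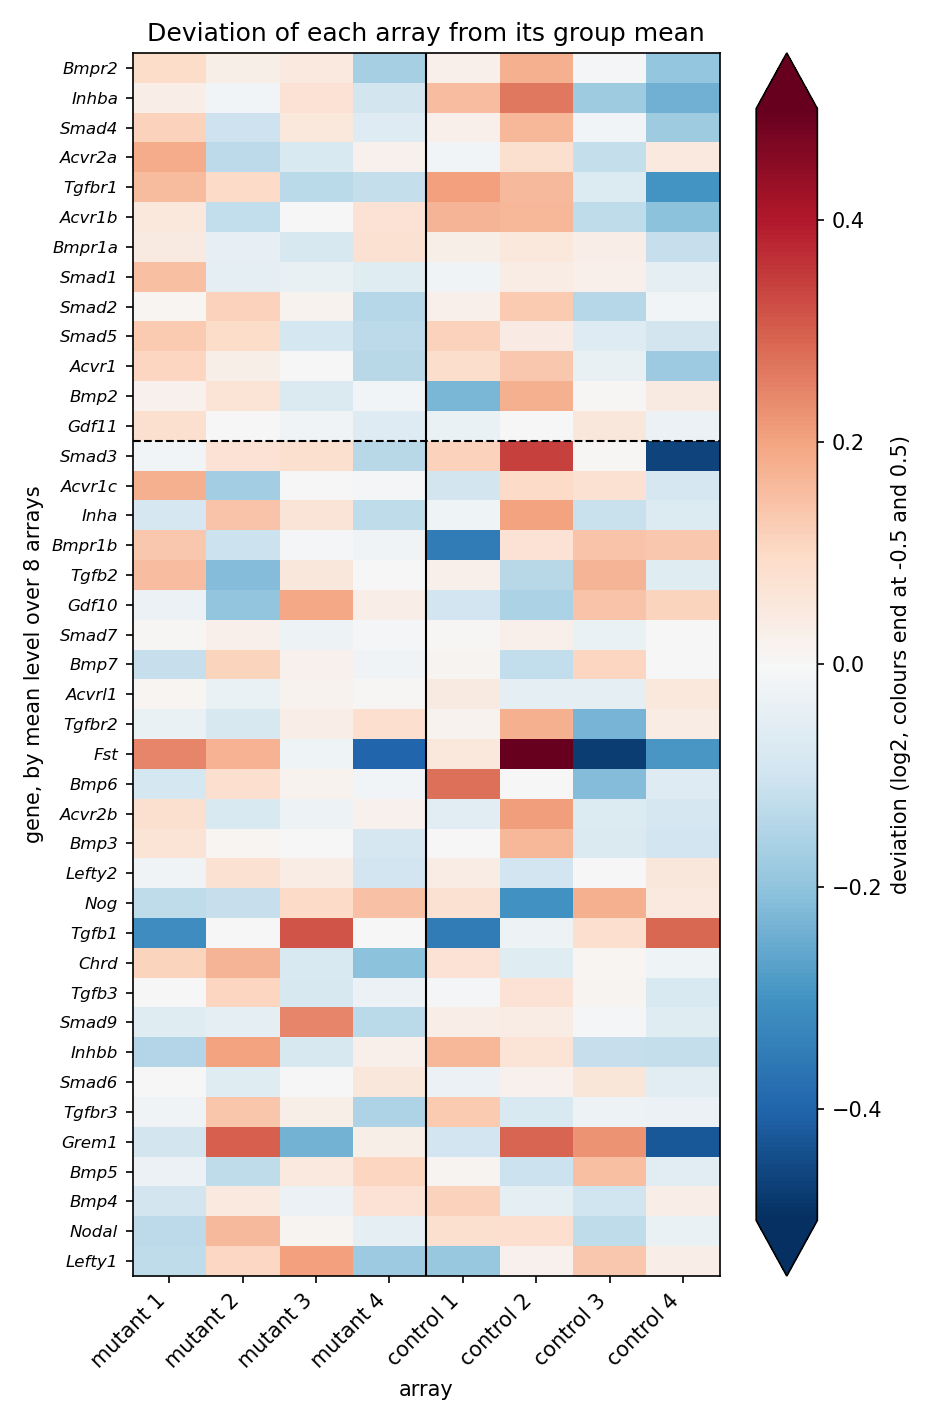
Deviation of each array from the mean of its own genotype (colour, log2) for the 41 pathway genes (rows, by mean level) in mutants 1 to 4 and controls 1 to 4 (columns). Above the dashed line, at a mean level of at least 7, mutant 1 and control 2 are above their mean at all 13 genes, while control 4 is above it at 2.

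The wider pathway, 87 further genes of which 82 were measured, was read for company to these 41. By limma 0 of the 82 passed, while 6 had an unadjusted p under 0.05, 4 lower and 2 higher in mutants. That is 7.32%, against 4.91% of all genes (3.28% lower and 1.64% higher). The median difference was -0.018. With no overlap, 3 of the 82 read lower (Gdf7, Sostdc1 and Tgif2) and 0 higher, against 1.79% and 0.963% of all genes. Sostdc1, of the extracellular list, differed by -0.16 ± 0.07 (SE, limma adjusted p = 0.9995). Among 26 extracellular modulators, Tll1, a protease that cleaves chordin, read 5.39, 5.14, 5.14 and 5.50 in mutants and 5.45, 5.53, 5.64 and 5.67 in controls (-0.28 ± 0.09, SE, limma adjusted p = 0.898). In the same list Fstl4, a follistatin-like gene, read 7.08, 7.08, 7.03 and 6.80 in mutants and 6.72, 6.90, 6.75 and 6.56 in controls (0.26 ± 0.09, adjusted p = 0.907). Among 21 intracellular regulators, Tgif2, a corepressor of Smads, differed by -0.28 ± 0.10 and Nedd4l, a ubiquitin ligase for activated Smads, by 0.19 ± 0.07 (adjusted p = 0.907 and 0.932). Tgif2 read 6.01 to 6.45 in mutants and 6.45 to 6.72 in controls, its highest mutant just under its lowest control, and its difference was -0.14 without the 2 female mutants. Tll1 was -0.43 without them.

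Of the 14 further ligands measured, 10 were negative, with Gdf7 at -0.15 ± 0.07 and Inhbe at -0.17 ± 0.08 (SE, limma adjusted p = 0.9995). Inhbe was -0.06 without the 2 female mutants. The 8 co-receptors and decoys had a median of 0.018, with Bambi, a decoy receptor, at 0.06 ± 0.07 and Tdgf1, the Nodal co-receptor Cripto, at 0.11 ± 0.12. Bambi was 0.03 and Tdgf1 0.28 without the 2 female mutants, and Tdgf1 was 0.01 without mutant 3. Transcripts listed as induced by the pathway were also read, and whether they report its activity in this tissue was not tested. Of 13 such genes measured 0 passed in limma and 0 had an unadjusted p under 0.05, against 0.0652% and 4.91% of all genes. A list of 13 is too short for a count of 0 to stand out from those shares. The median of the 13 was -0.0096, with 10 negative and 3 positive. After median centring it was 0.0020, with 6 negative and 7 positive. The BMP targets Id1, Id2, Id3 and Id4 differed by -0.04 ± 0.06, -0.14 ± 0.10, 0.05 ± 0.10 and -0.0096 ± 0.08 (SE). Ccn2, a target of TGF-beta that is also called CTGF, read 4.98 to 5.12 in mutants and 5.01 to 5.37 in controls, a difference of -0.13 ± 0.08 that was -0.07 without control 3. Id2 was -0.06 without control 4 and -0.24 without control 1.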

How the data were processed

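The authors deposited 1 log2 expression value for each of 35556 probe sets on 8 Affymetrix Mouse Gene 1.0 ST arrays, made with BRB-ArrayTools per the labels. The sources used here do not give background correction, normalization or version, and log2 was read from the values, which reach 13.63. There is no read depth, and 4 arrays per genotype set the precision. The platform annotation named the probe sets, with symbols updated by Entrez identifier (21698 of 21789 naming 1 gene). Of several per gene the one of highest mean was kept, leaving 19938 genes. The comparison of genotypes used limma 3.58.1 under R 4.3.3 (eBayes, two-sided, Benjamini-Hochberg over all genes, threshold 0.05, no filter), which was tested on simulated data. The members and lists were chosen with earlier results of these data known. Values per array were given for Lefty2, Lefty1, Nodal, members without overlap or with an unadjusted p under 0.05, and the 2 of smallest p per role. The 2 of smallest p in each wider list are named, mostly by their difference. Others, such as Fst, Rorb and Dcn, were picked after their values were seen. The alternatives were other scalings, a filter, priors, array weights, sex, the replicate number and leaving out arrays.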

Additional observations from a re-analysis of the deposited data

Results flagged for a closer look

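In 4 of the 82 groups of 4 arrays, 1 array lay far from the other 3, with a gap to the nearest of them above Dixon's 95% critical value. Chance gives about 1 in 20 groups. Acvr2b, an activin receptor, read 5.61 in control 2 against 5.32 to 5.35 in the other 3 controls. Bmpr1a read 7.91 in control 4 against 8.05 to 8.08 in the other 3 controls, and Bmpr1b read 5.98 in control 1 against 6.40 to 6.48 there. Smad1 read 7.94 in mutant 1 against 7.73 to 7.75 in the other 3 mutants. Control 2, control 4 and mutant 1 also stood high or low across the 13 pathway genes of mean level at least 7. Bmpr1a and Smad1 are themselves among those 13, so their flags are not separate from that pattern. In control 1, flagged for Bmpr1b, 9 of the 13 lay above the group mean, with a median deviation of 0.03.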

How the results depend on the processing

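Lefty2 was the 1 pathway gene called, and the number called was 0 after quantile normalization, after median centring, with the replicate block, with a term for sex and without the 2 female mutants (limma, with 2, 3, 6, 2 and 2 of 41 genes at an unadjusted p under 0.05). The share of all genes at that p, 4.91%, was taken in the main fit only. These counts therefore cannot be set against a share from their own fit, and no excess is read from them. The number called was 0 to 1 when 1 array was left out, and 1 in the fit without control replicate 2. The threshold of 0.1 gave 1. The Lefty2 difference and the median over the 41 genes, between -0.044 and -0.0025, moved by less than 1 SD between arrays in each of 18 fits, and the wider pathway had 0 calls in each. The other 21 named genes kept direction and side of the threshold in 370 of 372 values, and the exceptions were Nodal at 0.0092 both with a term for sex and without the female mutants. Several fits leave the differences unchanged, and the 21 genes had adjusted p values of at least 0.53 in the main limma fit. This count is therefore a weak check. Replicate numbers are not said to pair pups, and with them as a block Lefty2 had an adjusted p of 0.214 in limma. Same-numbered arrays correlated at -0.01 to 0.16 after group means were removed, and 2 of 4 mutants matched their own number best. The filter at a mean level of 5 left out 8 genes, Lefty1, Nodal, Smad6 and Tgfbr3 among them. The table holds no detection calls, so genes near the floor could not be marked as undetected.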

Other observations

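Markers of the cells that make or read these ligands gave no call in limma. Of 11 astrocyte markers 10 were positive, with a median of 0.045, and 0 had an unadjusted p under 0.05, against 4.91% of all genes. Of 11 endothelial markers 8 were positive, with a median of 0.020 and 0 at that p. Oligodendrocyte lineage and interneuron markers had medians of 0.032 (9 genes, 5 positive and 4 negative) and 0.011 (12 genes, 8 positive and 4 negative). In each list 2 genes had an unadjusted p under 0.05 in limma, all higher in mutants (Cnp and Bcas1, Reln and Calb2). That is 22.2% and 16.7%, against 4.91% of all genes (3.28% lower and 1.64% higher). Dcn, the gene of decorin, a proteoglycan of mural and meningeal cells that binds TGF-beta, read 3.32, 3.08, 3.34 and 2.72 in mutants 1 to 4, against 4.61, 3.31, 3.20 and 3.54 in controls 1 to 4. Its difference was -0.55 ± 0.25 (SE, limma adjusted p = 0.9995), with control 1 far above the rest. Foxc1, a transcription factor of the same list of 14, went the other way, reading 5.51, 5.51, 5.31 and 5.34 in mutants, against 5.07, 5.26, 5.27 and 5.10 in controls, with no overlap (0.24 ± 0.08, SE, adjusted p = 0.844). P2ry12, a microglial receptor whose expression needs TGF-beta, read 3.95, 3.64, 3.91 and 3.79 in mutants, against 3.98, 4.19, 4.32 and 3.90 in controls. The groups overlapped, and the difference was -0.27 ± 0.10 (SE, limma adjusted p = 0.932). P2ry12 was the 1 of 11 microglial markers with an unadjusted p under 0.05 in limma, while 4 of the 11 were positive. That is 9.09%, against 4.91% of all genes. P2ry12 read low, at 3.64 to 4.32, and whether it was detected was not tested. Fcrls of the microglial list went the other way, at 0.18 ± 0.16 (SE).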
